A study of Homo sapiens with 79 samples.

Results

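The RNAs described here are the transcripts of the mitochondrial chromosome and the humanin-like copies of its large ribosomal RNA that lie in nuclear chromosomes. Members were all genes of the deposited gene table whose symbol begins with MT- or MTRNR2L, which gave 48 of 48453 genes, with 13 mitochondrial mRNAs, 22 mitochondrial tRNAs and 13 MTRNR2L copies. The rule uses names and no measured value, and this set of genes was chosen with earlier results of these data known. The 2 mitochondrial rRNAs were not analysed here.

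All libraries were made from K562, a cell line established from a human leukemia. In fRIP-Seq, living cells are cross-linked with formaldehyde (0.1% for 10 min here), lysed, and incubated with an antibody against a single protein, and the recovered RNA is sequenced beside input RNA of the lysate. The 24 fRIPs comprised 6 RNA-binding proteins (PABP, IMP1, HUR, HNRNPU, HNRNPH1 and ADAR) and 18 chromatin-associated proteins (the Polycomb subunits EZH2 and SUZ12, WDR5 and RBBP5, CBX3 and its form phospho-CBX3, the remodellers CHD7, CHD4 and CHD1, the acetyltransferases PCAF and CBP, the demethylases PHF8 and LSD1, HDAC1, DNMT1, STAG2, CTCF and NUP98), with 3 libraries for each of 22 proteins and 2 each for EZH2 and STAG2. The 9 input libraries form 3 sets of 3, named input1, input2 and input3, and all libraries share the cell line and cross-linking. The study describes the replicates of a fRIP as biological, from different lysates and dates, and the labels give no date, so libraries that shared a day cannot be told apart. All come from a single cell line. Levels in input are of RNA of whole lysates, in which the number of mitochondria and the RNA in each cannot be told apart. The changes below set the RNA recovered with an antibody against input.

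Abundance was in FPKM, fragments scaled to transcript length and to the size of the library. Depth was recovered from the FPKM steps of low genes, each of which is worth 1 fragment, and ran from 1.94 M to 58.7 M fragments (median 14.9 M over 79 libraries, with M for megafragments). ADAR libraries were the shallowest (1.94 M to 2.31 M) and DNMT1 libraries the deepest (32.9 M to 58.7 M). In the inputs, the erythroid genes HBG2, HBE1, TFRC and GATA1 had medians of 944, 616, 297 and 85.3 FPKM, and BCR had 112 FPKM. Of genes marking other cells, MS4A1, CD3E, ALB and COL1A1 had medians of 0.357 FPKM or less, and the epithelial gene EPCAM of 35.4 FPKM.

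The mitochondrial chromosome is transcribed as long precursors from both strands, and tRNAs punctuate the precursors, so that their excision frees the mRNAs and rRNAs. The mRNAs encode core subunits of the respiratory chain and of ATP synthase, all of which are made inside the organelle, away from nuclear chromatin. Most of these mRNAs receive a short poly(A) tail, and MT-ND6, the mRNA of the opposite strand, does not. Humanin is a short peptide whose reading frame lies in the large rRNA, MT-RNR2, and the MTRNR2L genes are nuclear copies of that rRNA that keep similar frames.

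Mitochondrial genes lie end to end and some overlap, which bears on how fragments can be split between them. The coordinates below are those of hg19 with a mitochondrial chromosome of 16569 bases. MT-ATP8 (chrM:8366-8572) and MT-ATP6 (chrM:8527-9207) share 46 bases, MT-ND4L (chrM:10470-10766) and MT-ND4 (chrM:10760-12137) share 7, and MT-ATP6 and MT-CO3 (chrM:9207-9990) share 1. MT-ND5 (chrM:12337-14148) ends where MT-ND6 (chrM:14149-14673, opposite strand) ends. In the lines that follow, read on the plus strand, capitals mark the bases shared by both genes, or for MT-ND5 and MT-ND6 the bases of MT-ND6.
MT-ATP8 end and MT-ATP6 start, chrM:8516-8583: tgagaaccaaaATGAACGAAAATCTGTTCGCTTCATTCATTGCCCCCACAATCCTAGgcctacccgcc
MT-ND4L end and MT-ND4 start, chrM:10748-10778: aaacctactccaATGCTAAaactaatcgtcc
MT-ND5 end and MT-ND6 end, chrM:14129-14168: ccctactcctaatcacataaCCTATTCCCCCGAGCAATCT
Values of the pairs with shared bases depend on how the authors' counting split their fragments, and the study names a TruSeq RNA kit, whose libraries do not mark strand, so fragments of MT-ND6 and of RNA from the opposite strand at that place cannot be told apart.

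Whole-length alignments to MT-RNR2 were made for the 10 copies with coordinates of their own. Among those that passed the filter on low values, identity was 93.0% for MTRNR2L8, 92.8% for MTRNR2L12, 90.7% for MTRNR2L9, 88.5% for MTRNR2L1, 84.3% for MTRNR2L6 and 82.1% for MTRNR2L3. The other 4 aligned copies, MTRNR2L7, MTRNR2L10, MTRNR2L11 and MTRNR2L13, had 78.0% (MTRNR2L13) to 82.8% (MTRNR2L10). To show how few bases separate a fragment of a copy from one of the rRNA, the same stretch of 60 bases is given for MT-RNR2 and 5 copies, each in the direction of MT-RNR2, with capitals at bases that differ from it.
MT-RNR2, chrM:2485-2544, plus strand: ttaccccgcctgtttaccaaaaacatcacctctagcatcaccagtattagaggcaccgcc
MTRNR2L12, chr3:96336206-96336265, minus strand: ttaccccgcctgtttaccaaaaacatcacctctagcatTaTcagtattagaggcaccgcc
MTRNR2L8, chr11:10529862-10529921, minus strand: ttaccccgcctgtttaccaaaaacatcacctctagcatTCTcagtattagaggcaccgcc
MTRNR2L3, chr20:55934184-55934243, minus strand: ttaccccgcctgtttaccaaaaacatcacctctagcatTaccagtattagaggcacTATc
MTRNR2L1, chr17:22023240-22023299, plus strand: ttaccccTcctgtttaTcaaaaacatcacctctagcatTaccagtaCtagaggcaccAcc
MTRNR2L6, chr7:142374916-142374975, plus strand: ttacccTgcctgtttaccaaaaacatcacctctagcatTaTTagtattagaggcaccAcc
Across this stretch MTRNR2L12 differed from the rRNA at 2 bases, MTRNR2L8 at 3, MTRNR2L3 at 4, and MTRNR2L1 and MTRNR2L6 at 5. The stretch is more alike than the copies are as a whole, as MTRNR2L3 differed at 244 of 1364 aligned bases and MTRNR2L6 at 225 of 1437. Of all runs of 31 bases in MTRNR2L12, 33.4% also occur in the mitochondrial chromosome and 61.2% occur elsewhere in the nuclear genome, against 6.43% and 12.2% for MTRNR2L1 and 1.40% and 14.5% for MTRNR2L3. Fragments from such runs cannot be assigned by sequence alone, so the levels of these genes are uncertain.

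All 13 mitochondrial mRNAs were present in all 79 libraries. In the inputs (mean ± SD, n = 9), MT-CO3, a subunit of cytochrome c oxidase, was the most abundant with 1689 ± 171 FPKM. MT-CO1, another oxidase subunit, followed with 615 ± 71.9, MT-ND4L with 590 ± 85.1 and MT-ND4 with 529 ± 49.8 FPKM, both subunits of the NADH dehydrogenase, complex I. MT-ND2 (130 ± 14.7), MT-ND6 (120 ± 18.5) and MT-ND1 (102 ± 13.3 FPKM), all of complex I, were the lowest. The range of MT-CO3 in the inputs overlapped that of no other mRNA. In the order below it, neighbours overlapped except for MT-CYB (323 to 463 FPKM) and MT-ATP6 (184 to 295 FPKM), and MT-ATP6 and MT-ND2 (116 to 153 FPKM). Between the input sets, limma called none of 105 tests of members, and 8 of them had an unadjusted p under 0.05, where 0.672% (input2 against input1), 0.0275% (input2 against input3) and 1.31% (input3 against input1) of all tested genes were called.

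Each gene was compared between a fRIP and the 9 inputs on log2(FPKM + 1) with limma, and a call of enriched or depleted needed a change over 2-fold and an adjusted p (Benjamini-Hochberg over 25442 tested genes) under 0.05. Changes below are on that log2 scale, on which the change of low genes is understated, and are followed by the standard error where one is given. All 24 comparisons share the 9 inputs. Over the 312 pairs of a mitochondrial mRNA and a fRIP, 234 were depleted (75%) and 25 enriched (8.01%), beside 5.52% depleted and 6.9% enriched among all pairs of a gene and a fRIP. The 13 mRNAs moved together across the 24 fRIPs, with a Pearson correlation of each with the mean of the others from 0.937 (MT-CO3) to 0.996 (MT-ND4), as a description over fRIPs that share their inputs. The plot of changes by fRIP shows this as bands of one colour.

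**Figure D1:**
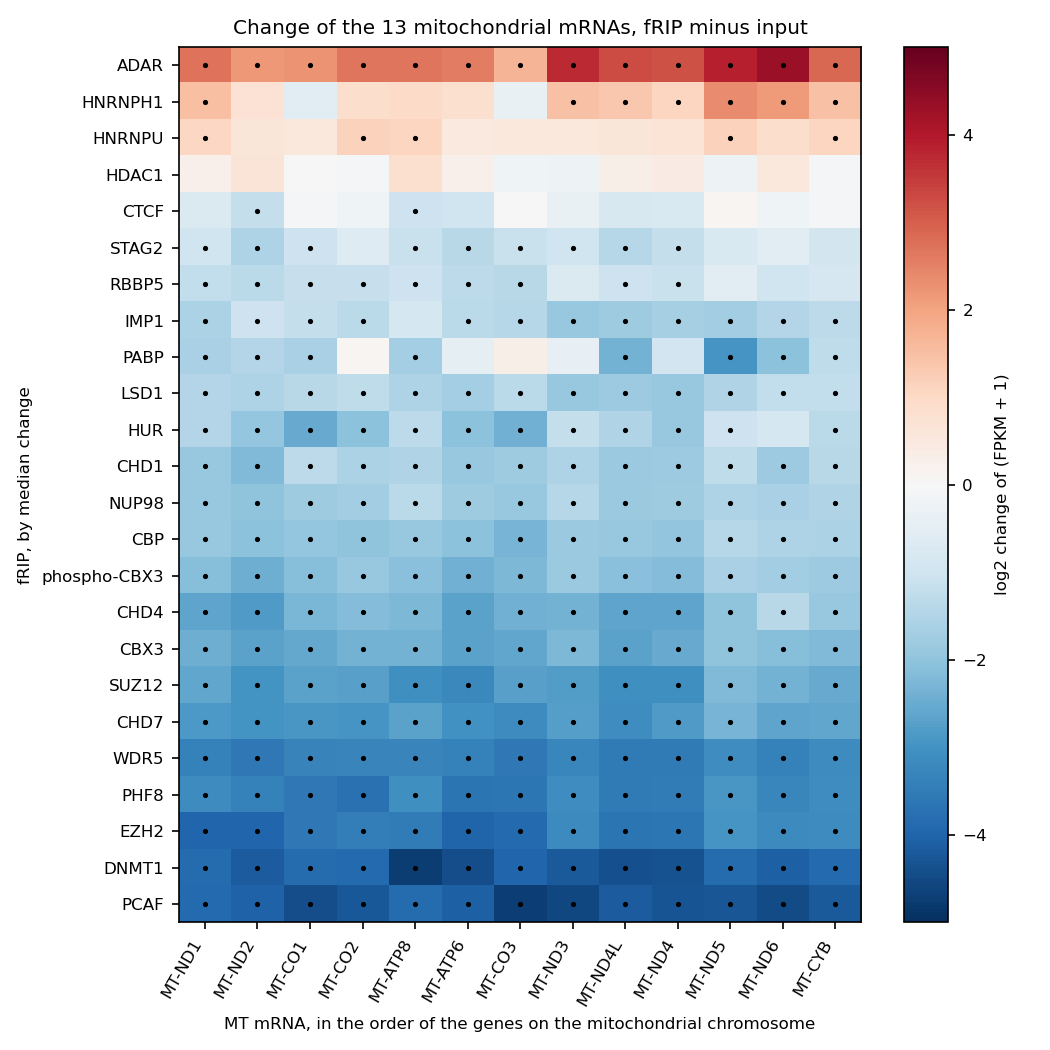
Log2 change of FPKM + 1 of the 13 mitochondrial mRNAs (columns, in gene order) in the 24 fRIPs against input (rows, ordered by the median change), with a dot where the gene was called. ADAR is red and HNRNPH1 mostly red at the top, and PCAF and DNMT1 are the darkest blue at the bottom.

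ADAR, an enzyme that edits double-stranded RNA by deaminating adenosines, recovered every mitochondrial mRNA above input. In ADAR fRIP 13 of 13 mRNAs were enriched, where 26.6% of all tested genes were, with a median change of 2.70 against 0.29 for all genes. MT-ND5, a subunit of complex I, had 4650, 5937 and 7467 FPKM in the 3 ADAR libraries and 326 to 470 FPKM (median 394) in the 9 inputs. Its change was 3.90 ± 0.18 (adjusted p = 1.18e-27 by limma). All ADAR libraries lay above all inputs for each of the 13 mRNAs, and the largest change was that of MT-ND6, with 1815, 2628 and 2970 FPKM against 85.7 to 145 FPKM (median 124) in input, a change of 4.33 ± 0.25. The smallest was that of the most abundant mRNA, MT-CO3, with 4415, 5252 and 6919 FPKM against 1472 to 1970 FPKM (median 1680), a change of 1.69 ± 0.19 (adjusted p = 2.71e-11 by limma). Together the 13 mRNAs held 8.58% ± 1.76 (SD, n = 3) of the FPKM of protein-coding genes in ADAR libraries and 1.40% ± 0.136 (n = 9) in input. ADAR libraries were also the shallowest of the series, and the part of depth in these changes was not tested. The lowest number of fragments behind a value in any library of the series was 12.6 for MT-ND6, 316 for MT-CO3 and 356 for MT-ND5. With each library centred on the median of its genes, which moved the median change of all genes in ADAR fRIP from 0.29 to -0.69, 12 of the 13 were called and MT-CO3 (0.71) was not.

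HNRNPH1, a splicing regulator that binds G-rich RNA, recovered the mRNAs unevenly. In HNRNPH1 fRIP 7 of 13 were enriched (24.5% of all tested genes were), namely MT-ND1, MT-ND3, MT-ND4L, MT-ND4, MT-ND5 and MT-ND6 of complex I and MT-CYB, the mitochondrial subunit of complex III. MT-ND5 had 2058, 1582 and 2637 FPKM, all above the inputs, with a change of 2.38 ± 0.18 (adjusted p = 9.22e-18 by limma). MT-CO3 had 1309, 1026 and 1691 FPKM, which overlapped the inputs, with a change of -0.35 ± 0.19. The 6 mRNAs that were not called were all 3 oxidase subunits, both ATP synthase subunits (MT-ATP6 and MT-ATP8) and MT-ND2, with changes from -0.58 (MT-CO1) to 0.94 (MT-ATP8). Thus within complex I 6 of 7 mRNAs were called and within the oxidase 0 of 3, and this difference between complexes was described and not tested. Under the same centring, which moved the median change of all genes from 0.34 to -0.40, MT-ND5 (1.64) and MT-ND6 (1.41) were called enriched and MT-CO1 (-1.32) and MT-CO3 (-1.09) depleted. Without HNRNPH1 replicate 3, MT-ND4 (0.89) was not called, and without replicate 2, MT-ATP8 (1.14) and MT-CO2 (1.02) were.

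HNRNPU, a nuclear matrix protein that binds RNA, came next with a median change of 0.70. In HNRNPU fRIP 5 of 13 mRNAs were enriched, MT-CO2, MT-ND5, MT-ATP8, MT-CYB and MT-ND1, where 13.1% of all tested genes were. MT-CO2 had 857, 1007 and 1048 FPKM against 400 to 506 FPKM (median 423) in input, a change of 1.15 ± 0.18 (adjusted p = 3.85e-07 by limma), and the groups did not overlap. Under the centring above, which moved the median change of all genes from 0.16 to -0.43, none of the 5 was called and 5 uncalled mRNAs (MT-ND2, MT-CO1, MT-ND3, MT-ATP6 and MT-CO3) took a change below 0. Without HNRNPU replicate 3, MT-ATP8 (0.91), MT-CYB (0.99) and MT-ND1 (0.91) were not called, nor was MT-ND1 without input2 replicate 2, input3 replicate 1 or input3 replicate 3 (0.98 to 1.00). With upper quartile scaling, or against input2 alone, 2 of 13 were enriched.

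In 14 fRIPs, all of chromatin-associated proteins, 13 of 13 mRNAs were depleted. The lowest medians were those of PCAF, a histone acetyltransferase (-4.25, where 8.54% of tested genes were depleted and 0.515% enriched), DNMT1, the maintenance DNA methyltransferase (-4.09, 6.88%), and EZH2, the methyltransferase of Polycomb repressive complex 2 (-3.59, 9.13%). MT-CO3 had 69.8, 53.4 and 65.8 FPKM in PCAF fRIP, 118, 122 and 82.4 FPKM in DNMT1 fRIP, and 105 and 123 FPKM in EZH2 fRIP, all far below the inputs. Its changes were -4.72 ± 0.19, -3.98 ± 0.19 and -3.88 ± 0.23. The changes of the 13 mRNAs ran from -4.72 to -3.83 in PCAF fRIP and from -4.76 to -3.83 in DNMT1 fRIP, a range of 0.89 and 0.93, and the narrowest range of any fRIP was 0.46 in WDR5 fRIP. The 13 mRNAs held 0.0611% of protein-coding FPKM in PCAF fRIP (SD 0.00911, n = 3), 0.0612% in DNMT1 fRIP (SD 0.0127, n = 3) and 0.117% in EZH2 fRIP (SD 0.0153, n = 2).

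In the other 11 of these fRIPs the depletion was smaller. The median change was -3.37 in PHF8 fRIP (1.71% of tested genes depleted), -3.37 in WDR5 fRIP (6.71%), -2.88 in CHD7 fRIP (0.896%) and -2.73 in SUZ12 fRIP (8.6%). It was -2.42 in CBX3 fRIP (3.65%, with 7.45% enriched), -2.36 in CHD4 fRIP (9.79%), -2.11 in phospho-CBX3 fRIP (2.91%) and -1.89 in CBP fRIP (3.78%, with 9.08% enriched). It was -1.76 in NUP98 fRIP (5.11%), -1.76 in CHD1 fRIP (1.0%) and -1.49 in LSD1 fRIP (6.66%). Depletion of the mitochondrial mRNAs therefore stood beside a small share of depleted genes in CHD7, CHD1 and PHF8 fRIP and a larger one in CHD4 and PCAF fRIP.

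Fewer than 13 mRNAs were depleted in the remaining fRIPs. In fRIP of HUR, which binds AU-rich mRNAs, 12 of 13 were depleted (6.93% of tested genes, with 6.42% enriched), and MT-ND6 was not. In fRIP of IMP1, which binds cytoplasmic mRNAs, 12 of 13 were depleted (10.5%, with 4.23% enriched), and MT-ATP8 was not. RBBP5 (0.731%) and STAG2 fRIP (3.36%) each had 9 of 13 depleted, with medians of -1.11 and -1.04. In STAG2 fRIP 5 of 13 were depleted against input3 alone, and also with a replicate block in input set 2 only. That block sets STAG2 fRIP against input1 and input3, and MT-CO1, MT-ND1, MT-ND3 and MT-ATP8 were not called under it (-0.96 to -0.88). Under median centring 6 of 13 were depleted in IMP1 fRIP and 8 of 13 in LSD1 fRIP. In CTCF fRIP only MT-ND2 and MT-ATP8 were depleted (0.79%), with a median change of -0.38 over the 13, and 1 of these calls was lost without CTCF replicate 1, without input2 replicate 1 or 3, and against input1 or input3 alone. In HDAC1 fRIP limma called none of the 13 (4 had an unadjusted p under 0.05, and 5.35% of tested genes were depleted and 8.42% enriched), with changes from -0.26 to 0.82 and a share of protein-coding FPKM of 1.76% ± 0.201 (n = 3).

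PABP, which binds poly(A) tails, parted the mRNAs more than any other fRIP, with changes from -2.96 (MT-ND5) to 0.29 (MT-CO3). In PABP fRIP 8 of 13 were depleted, where 14.7% of tested genes were. MT-ND5 had 51.2, 42.6 and 56.0 FPKM, all far below the inputs, with a change of -2.96 ± 0.18 (adjusted p = 2.86e-21 by limma). MT-CO3 had 1951, 1769 and 2513 FPKM, which overlapped the inputs, with a change of 0.29 ± 0.19, and MT-CO2 had 437, 423 and 535 FPKM with a change of 0.08 ± 0.18. MT-ND3 (-0.39), MT-ATP6 (-0.47) and MT-ND4 (-0.94) were the other mRNAs not called. MT-ND4L, which overlaps MT-ND4 by the 7 bases printed above, was depleted further, with 105, 115 and 119 FPKM against 497 to 707 FPKM (median 564), a change of -2.36 ± 0.19. The plot of 6 fRIPs along the genes shows these profiles.

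**Figure D2:**
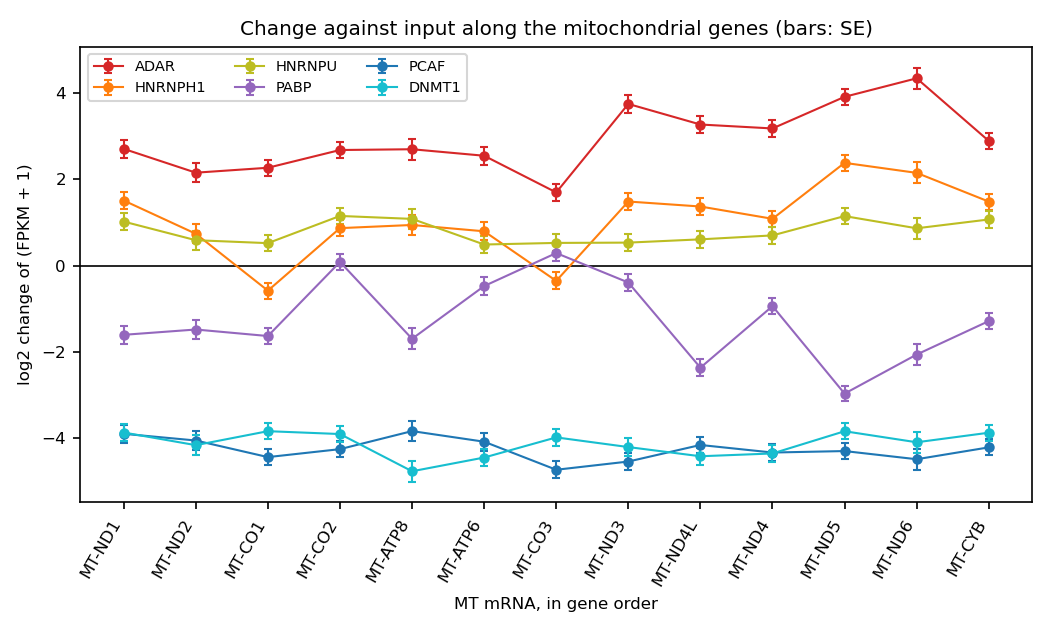
Log2 change of FPKM + 1 against input along the 13 mitochondrial mRNAs in gene order, for 6 fRIPs, with bars for the standard error of the limma fit. PABP swings between -2.96 at MT-ND5 and 0.29 at MT-CO3, while PCAF and DNMT1 stay between -4.76 and -3.83.

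Since MT-CO3 and MT-ND5 lay at the ends of this order in PABP fRIP, the ratio of their FPKM was taken in each library, a choice made after their values were seen. The test is a two-sided exact permutation test over libraries on log2(FPKM + 1), adjusted over the 23 fRIPs other than PABP, and 3 libraries against 9 can give no unadjusted p below 0.00455. In the 9 inputs the ratio of MT-CO3 to MT-ND5 was 3.81 to 5.00 (median 4.05). In PABP fRIP it was 37.4, 40.6 and 44.1 from lowest to highest, a log2 difference of 3.25, which is given without a test since the pair was chosen on these libraries. For these 3 libraries MT-CO3 was the higher RNA by a factor that no input or other fRIP reached. IMP1 fRIP also had a higher ratio (4.91 to 6.25, adjusted p = 0.0131 by exact permutation), though its range overlapped the inputs and the call was lost without IMP1 replicate 2 or 3. The ratio was lower than in input in 18 fRIPs, furthest in HNRNPH1 fRIP (0.636 to 0.649, log2 difference -2.73) and ADAR fRIP (0.885 to 0.950, -2.21), followed by HUR fRIP (1.61 to 1.75, -1.35), each at an adjusted p of 0.00747 by exact permutation. In ADAR and HNRNPH1 fRIP, MT-ND5 thus exceeded MT-CO3 in every library, an order seen in no input. CTCF, DNMT1, HDAC1 and LSD1 fRIP were not called, with log2 differences from -0.14 to 0.14.

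**Figure D3:**
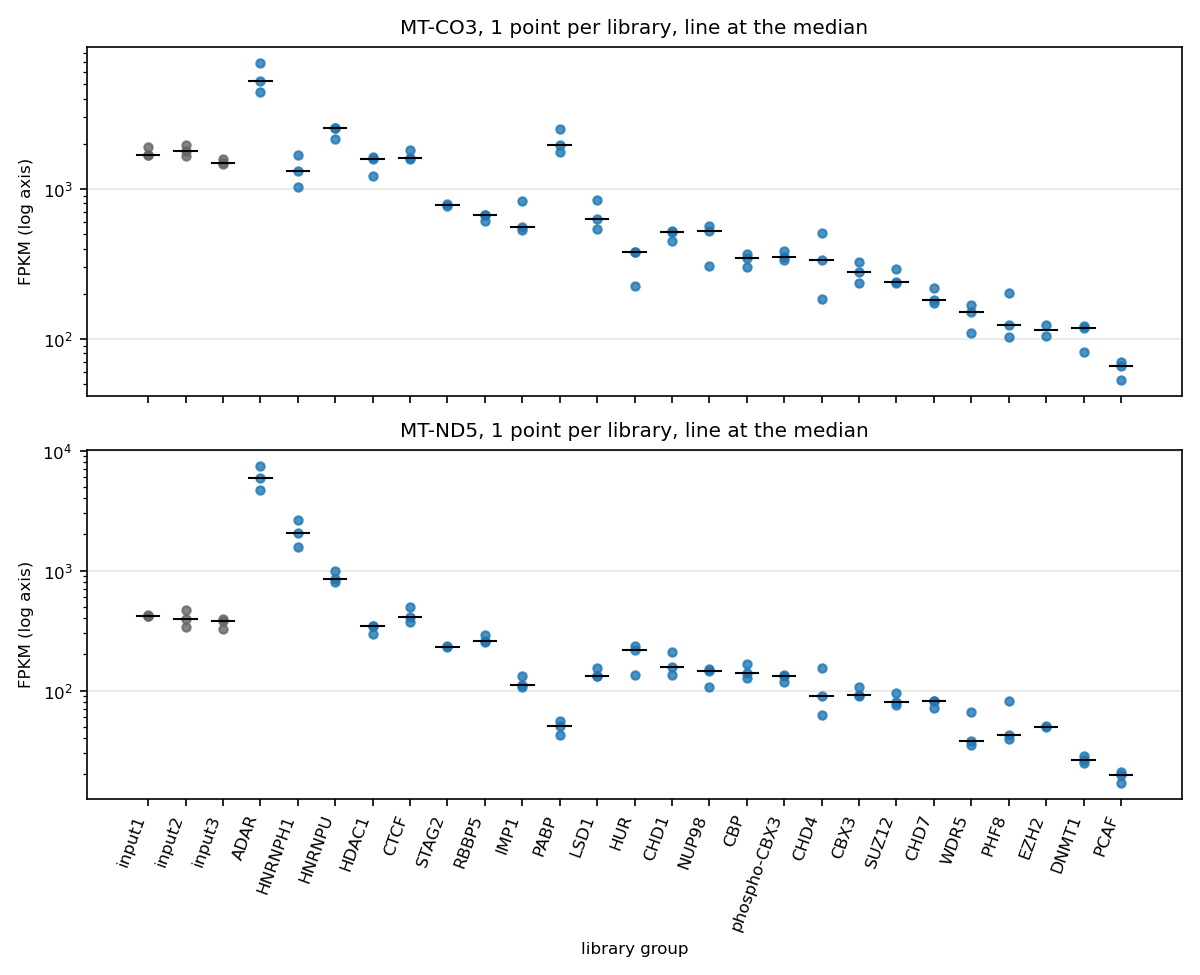
FPKM (log axis) of MT-CO3 (top) and MT-ND5 (bottom) with 1 point per library and a line at the median, for the 3 input sets and the 24 fRIPs in order of their median mRNA change. PABP lies with the inputs for MT-CO3 (1769 to 2513) and far below them for MT-ND5 (42.6 to 56.0).

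MT-ND6 was set against MT-ND5, its neighbour on the other strand. As such libraries do not mark strand, RNA of the opposite strand at either gene cannot be told apart. In input the ratio of MT-ND6 to MT-ND5 was 0.257 to 0.346 (median 0.305). It was higher in 5 fRIPs, PABP (0.526 to 0.630, log2 difference 0.90), HDAC1 (0.487 to 0.570, 0.81), CHD4 (median 0.478, log2 difference 0.65), ADAR (0.390 to 0.443, 0.43) and IMP1 (0.331 to 0.386, 0.27), each with an adjusted p of 0.0218 by exact permutation, adjusted over 24 fRIPs. The first 4 did not overlap the inputs and IMP1 did. It was lower in 7 fRIPs, CHD1, RBBP5, PHF8, CTCF, HNRNPU, DNMT1 and HNRNPH1, with log2 differences from -0.56 in CHD1 fRIP (0.153 to 0.269) to -0.23 in HNRNPH1 fRIP. Of these only CTCF fRIP (0.236 to 0.256) lay below all inputs, and the others overlapped them. Without replicate 1 of each fRIP, or without replicate 2, 0 fRIPs were called in either direction, and without replicate 3 the ratio was higher in 6 and lower in 4. In this exact permutation test 2 libraries against 9 can give no unadjusted p below 0.0182. After adjustment over 24 fRIPs such counts turn on how many fRIPs reach that floor together, and they do not show that a shift was lost.

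Some of the proteins are partners or forms of each other. RBBP5 and WDR5 are subunits of the same histone methyltransferase complexes. The RBBP5 libraries had 250, 248 and 233 FPKM of MT-ND4 and the WDR5 libraries 43.7, 36.1 and 55.9 FPKM, and all 13 mRNAs were higher in RBBP5 fRIP by a median of 2.25 (18.0% of tested genes differed in either direction). SUZ12 and EZH2 are subunits of Polycomb repressive complex 2, and 2 of 13 mRNAs were higher in SUZ12 fRIP (31.6% of tested genes differed), MT-CO3 by 1.16 ± 0.27 and MT-ND1 by 1.39 ± 0.28. For MT-ND1 the SUZ12 libraries had 13.8, 15.1 and 19.7 FPKM and the EZH2 libraries 5.13 and 5.86 FPKM, with no overlap. For phospho-CBX3, a modified form of CBX3, none of the 13 mRNAs was called against CBX3 by limma (2.73% of tested genes were, and 2 mRNAs had an unadjusted p under 0.05), and the median difference was 0.37. Without EZH2 replicate 2, MT-ND2 (1.07) and MT-ND6 (1.05) were also higher in SUZ12 than in EZH2 fRIP, as was MT-CO1 without EZH2 replicate 1 (1.01) or SUZ12 replicate 2 (1.05), and MT-ND2 without SUZ12 replicate 3 (1.01).

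The tRNAs were measured much less well than the mRNAs. Of 22 mitochondrial tRNAs, 7 (MT-TA, MT-TE, MT-TK, MT-TN, MT-TQ, MT-TS1 and MT-TW) were listed at 0 in all 79 libraries, and 15 passed the filter of 1 FPKM in at least 2 libraries. The 7 at 0 have all of their runs of 31 bases in the nuclear genome as well. MT-TV, the only other tRNA of which this holds, was above 0 in 16 libraries, and the 14 others were above 0 in 5 to 74 libraries. The plot of detection against shared sequence shows this, and the part of multiple alignment in it was not tested. Over the whole mitochondrial chromosome 37.8% of runs of 31 bases occur in the nuclear genome, 21.1% in chr1:560001-570000 alone. Among the mRNAs this share ran from 4.11% for MT-ND3 and 7.11% for MT-CYB to 65.3% for MT-ATP6 and 69.7% for MT-CO1.

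**Figure D4:**
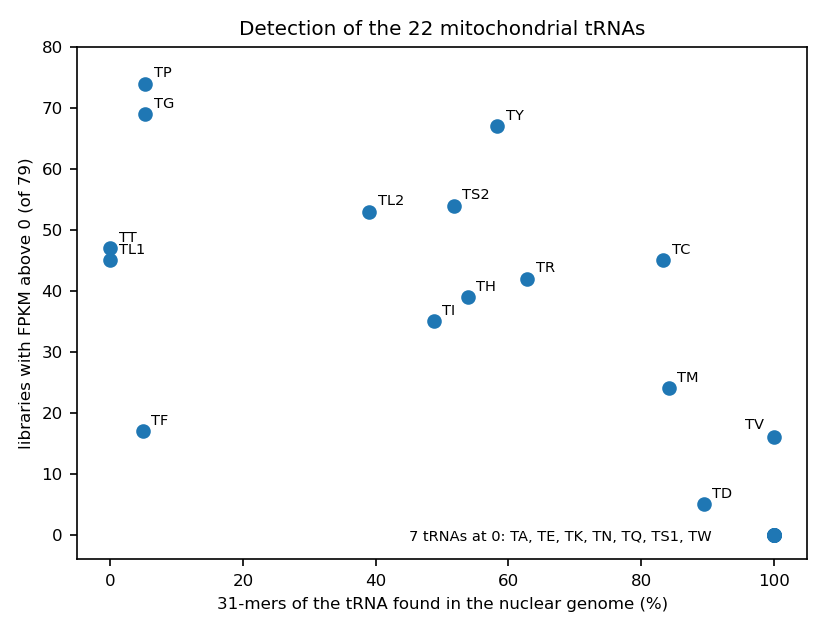
Number of libraries (of 79) in which each of the 22 mitochondrial tRNAs was above 0 FPKM, against the share of its runs of 31 bases that also occur in the nuclear genome. The 7 tRNAs listed at 0 in every library all lie at 100%, and MT-TP and MT-TG, at 5.26%, were above 0 in 74 and 69 libraries.

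The sequences of the 4 most abundant tRNAs in input, and of MT-TI, the tRNA with the most calls, are printed to show how short these genes are, at 59 to 69 bases. All are read 5′ to 3′ on the strand named.
MT-TY, chrM:5826-5891, minus strand: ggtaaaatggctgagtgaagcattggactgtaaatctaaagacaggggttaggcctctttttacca
MT-TP, chrM:15956-16023, minus strand: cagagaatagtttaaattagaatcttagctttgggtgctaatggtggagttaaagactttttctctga
MT-TG, chrM:9991-10058, plus strand: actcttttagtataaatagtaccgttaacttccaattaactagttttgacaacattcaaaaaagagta
MT-TS2, chrM:12207-12265, plus strand: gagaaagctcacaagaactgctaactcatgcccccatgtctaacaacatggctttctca
MT-TI, chrM:4263-4331, plus strand: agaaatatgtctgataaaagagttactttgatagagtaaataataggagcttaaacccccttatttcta
A single fragment on so short a gene is worth a large FPKM, so the values move in large steps. In ADAR replicate 3 the higher of the tRNAs of 69 bases above 0 had 19.0 times the FPKM of the lower, and MT-TI lay within 1.5 times of its smallest step in 20 of the 35 libraries in which it was above 0.

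In input, MT-TY had 5777 to 17662 FPKM (median 14473), MT-TP 5402 to 21950 (median 8668), MT-TG 3021 to 14526 (median 8908), MT-TS2 1219 to 7492 (median 4928) and MT-TC 673 to 4542 FPKM (median 3419). Over 360 pairs of a tRNA and a fRIP, 5 were enriched (1.39%) and 102 depleted (28.3%), against 6.9% and 5.52% of all pairs of a gene and a fRIP. All 5 enriched pairs were in ADAR fRIP, MT-TG, MT-TH, MT-TL2, MT-TM and MT-TP. They were 5 of the 15 tested tRNAs, in a fRIP where 26.6% of all tested genes were enriched. MT-TG had 149570, 223970 and 284638 FPKM in the ADAR libraries, a change of 4.68 ± 1.88 (adjusted p = 0.0282 by limma), and MT-TP had 76806, 75861 and 94879 FPKM, a change of 3.12 ± 1.21 (adjusted p = 0.0231). MT-TY had 152365, 300251 and 286001 FPKM and MT-TS2 201399, 269913 and 208416 FPKM, neither of which was called (adjusted p of 0.068 and 0.0616). All of these ADAR libraries lay above all inputs, and the standard errors of 1.21 to 2.70 were far above those of the mRNAs. Each of the 5 enriched calls was lost without at least 1 of the 3 ADAR libraries, and the number called was 2 to 6 as libraries were left out. MT-TM had 4042, 21675 and 7590 FPKM against 0 to 1215 FPKM in input. In EZH2 fRIP 10 of 15 tRNAs were depleted (9.13% of all tested genes were), with MT-TY and MT-TS2 listed at 0 in both libraries. MT-TI was depleted in 13 fRIPs, MT-TM and MT-TT in 11 each, MT-TC in 10, MT-TY in 9, and MT-TG and MT-TL2 in 8 each. These counts depend on the inputs, as the 102 depleted pairs became 31 against input3 alone and 61 against the nearest input set. MT-TI and MT-TM were listed at 0 in 44 and 55 libraries. Where above 0, their medians were 1.26 and 1.23 times the smallest step, with depth taken into account. In input they had medians of 574 and 520 FPKM, and both were at 0 in some inputs. A value of 0 gives a large fall on this scale, and the part of depth in these calls was not tested.

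Of the 13 MTRNR2L copies, 7 passed the filter, MTRNR2L1, MTRNR2L2, MTRNR2L3, MTRNR2L6, MTRNR2L8, MTRNR2L9 and MTRNR2L12. The others reached 1.29 FPKM at most (MTRNR2L7 in phospho-CBX3 replicate 3), with 1.16 FPKM for MTRNR2L5 in the same library, 0.805 for MTRNR2L4 (ADAR replicate 2), and 0.396, 0.343 and 0.133 FPKM for MTRNR2L11, MTRNR2L10 and MTRNR2L13. Over the 168 pairs of a tested copy and a fRIP, 24 were enriched (14.3%) and 5 depleted (2.98%), against 6.9% and 5.52% of all pairs of a gene and a fRIP. A copy could pass the filter through the fRIPs in which it was then called, so these shares depend on the filter. With 1 FPKM required in at least as many libraries as not, only MTRNR2L12 was tested, with 6 of 24 pairs enriched and 5 depleted. In input all copies were low RNAs beside the mitochondrial mRNAs. The correlation of a copy with the mean of the mitochondrial mRNAs over the 24 fRIPs was 0.0935 for MTRNR2L1, 0.214 for MTRNR2L12, 0.220 for MTRNR2L6, 0.277 for MTRNR2L9, 0.349 for MTRNR2L2, 0.531 for MTRNR2L8 and 0.696 for MTRNR2L3. That between MTRNR2L12 and MTRNR2L1 was 0.966. As the copies share sequence with each other, such likeness between copies is a description only.

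MTRNR2L12, on chr3:96335981-96337000, was the most abundant copy in input. In the 9 inputs it had 0.986 to 5.31 FPKM (median 1.75). In fRIP of STAG2, a cohesin subunit, its 2 libraries had 137 and 75.2 FPKM, from 1069 and 632 fragments, and in phospho-CBX3 fRIP it had 58.4, 34.4 and 12.4 FPKM. The study took STAG2 as a negative control, since its fRIP seemed to recover no more bulk RNA than background. It also reports a small set of genes strongly enriched there. Binding by STAG2 was not tested here, for this or any other copy. LSD1, a histone demethylase, gave 18.2, 39.9 and 28.5 FPKM and RBBP5 gave 36.9, 22.4 and 16.9 FPKM. All libraries of these 4 fRIPs lay above all inputs, while 9 of 13 mitochondrial mRNAs in STAG2 fRIP (5 with the block in input set 2) and RBBP5 fRIP and 13 of 13 in phospho-CBX3 and LSD1 fRIP were depleted. The changes were 5.00 ± 0.40, 3.25 ± 0.34, 3.16 ± 0.34 and 2.97 ± 0.34 (adjusted p from 4.79e-15 to 8.88e-10 by limma), in fRIPs where 0.979%, 2.58%, 0.814% and 2.28% of tested genes were enriched. The CHD1 libraries had 8.23, 4.74 and 15.0 FPKM, which overlapped the inputs, a change of 1.56 ± 0.34 (0.424% of tested genes enriched) that fell to 0.89 and was not called against input2 alone, the set nearest to CHD1 in the deposited comparisons. The ADAR libraries had 4.18, 7.01 and 5.67 FPKM, from 7, 14 and 11 fragments, a change of 1.03 ± 0.34 that was 0.05 under median centring and 0.57 under upper quartile scaling, neither called, and it was not called without any of 6 single libraries, at 0.88 without ADAR replicate 2.

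MTRNR2L12 was depleted in CHD7, DNMT1, HNRNPH1, HUR and PABP fRIP. The other copies were too low in input for a 2-fold fall on log2(FPKM + 1), also where they were listed at 0, so this scale does not show whether they fell. With a pseudocount of 0.1 in place of 1, 26 pairs of a copy and a fRIP were depleted. HNRNPH1 libraries held 0, 2 and 1 fragments of it (0, 0.341 and 0.179 FPKM), HUR libraries 4, 0 and 0, and PABP libraries 2, 3 and 8, where input libraries held 13 to 140. HNRNPH1, HUR and PABP libraries lay below all inputs, and CHD7 (1.10, 0.710 and 0.118 FPKM) and DNMT1 libraries (0.636, 1.06 and 0.0703 FPKM) overlapped them. The calls in CHD7 and DNMT1 fRIP were lost without their replicate 3 (-0.76 and -0.80), without input2 replicate 1 or 2, and against input1 or input3 alone, in which MTRNR2L12 was lower than in input2 (0.986 to 2.14 against 2.51 to 5.31 FPKM). The call in PABP fRIP was lost against input3 alone (-0.94), the set nearest to PABP in the deposited comparisons, and under median centring (-0.87).

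MTRNR2L1 (chr17:22022437-22023991) followed MTRNR2L12 in its pattern over the fRIPs. In STAG2 fRIP it had 22.7 and 15.8 FPKM, in phospho-CBX3 fRIP 14.2, 5.18 and 5.74, in RBBP5 fRIP 8.32, 5.06 and 2.88, and in LSD1 fRIP 2.36, 7.41 and 5.17 FPKM, against 0 to 0.938 FPKM (median 0.0482) in input. Its changes in these 4 fRIPs were 4.05 ± 0.27, 2.84 ± 0.23, 2.32 ± 0.23 and 2.22 ± 0.23, and every one of these libraries lay above every input. CHD1 fRIP (1.90, 0.888 and 2.89 FPKM) overlapped the inputs, and its change of 1.20 ± 0.23 fell to 0.79 and was not called against input2 alone.

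The other copies of this group were called in fewer fRIPs. MTRNR2L9 (chr6:62284008-62284534) had 5.00 and 5.46 FPKM in STAG2 fRIP against 0 to 0.397 in input, a change of 2.36 ± 0.30, and was also enriched in phospho-CBX3 and RBBP5 fRIP. MTRNR2L6 (chr7:142374104-142375550) had 2.14 and 2.06 FPKM in STAG2 fRIP and 0 to 0.127 FPKM in input, a change of 1.59 ± 0.10, and was enriched in phospho-CBX3 fRIP too. MTRNR2L6 reached 1 FPKM in only 3 libraries, all of STAG2 or phospho-CBX3 fRIP. It thus passed the filter only through the fRIPs in which it was called. MTRNR2L2 had 10.1 and 4.87 FPKM in STAG2 fRIP against 0.223 to 1.31 FPKM, a change of 2.30 ± 0.26. In phospho-CBX3 fRIP the single library with the highest value decided 2 of these calls, as MTRNR2L9 fell from 1.18 to 0.53 without replicate 1 and MTRNR2L6 from 1.01 to 0.82 without replicate 3. In RBBP5 fRIP MTRNR2L9 fell from 1.06 to 0.83 without replicate 1, and it was not called with the block in input set 2 either. MTRNR2L8 (chr11:10529434-10530723) stood between the groups. It had 4.57 and 2.98 FPKM in STAG2 fRIP, 2.44, 2.73 and 1.91 FPKM in HNRNPH1 fRIP and 1.54, 1.48 and 1.00 FPKM in HDAC1 fRIP, against 0.0578 to 0.289 FPKM in input, with changes of 2.03 ± 0.18, 1.53 ± 0.15 and 1.01 ± 0.15, and none of these libraries overlapped the inputs. The change in HDAC1 fRIP lay at the limit of 2-fold and was not called without replicate 1 (0.95), and under median centring those in HNRNPH1 (0.80) and HDAC1 fRIP (0.72) were not called.

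MTRNR2L3 (chr20:55933496-55934878) had a pattern of its own, nearer to that of the mitochondrial mRNAs (correlation over the 24 fRIPs 0.696 with their mean and 0.151 with MTRNR2L12). Its largest changes were 2.38 ± 0.16 in HNRNPH1 fRIP (5.69, 7.08 and 5.79 FPKM, from 53, 59 and 46 fragments) and 2.35 ± 0.16 in ADAR fRIP (4.63, 6.70 and 6.90 FPKM, from 11, 19 and 19 fragments), against 0.253 to 0.587 FPKM (median 0.337) in input. No library of either fRIP overlapped the inputs. It was also enriched in RBBP5 (1.12) and PHF8 fRIP (1.02, where 3.18% of tested genes were), and both calls were lost without replicate 3, at 0.86 and 0.65. In PABP fRIP all 3 libraries were at 0 fragments, beside 4 to 18 in the inputs. The plot of 3 copies by library sets the patterns side by side.

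**Figure D5:**
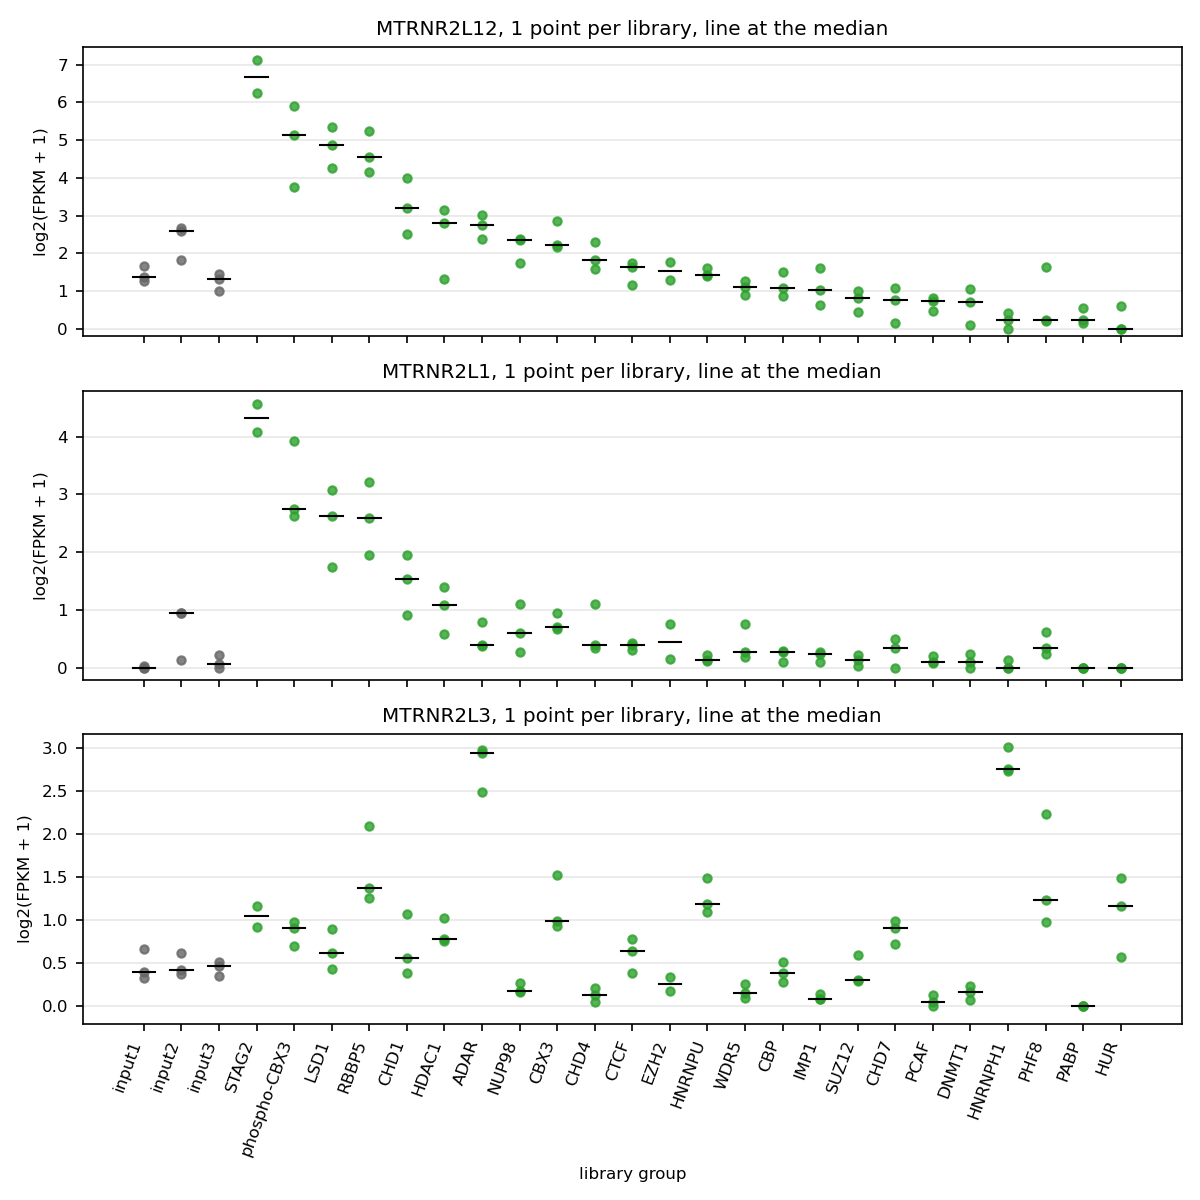
Log2(FPKM + 1) of MTRNR2L12, MTRNR2L1 and MTRNR2L3 with 1 point per library and a line at the median, for the 3 input sets and the 24 fRIPs in order of MTRNR2L12. STAG2, phospho-CBX3, LSD1 and RBBP5 lie above all inputs for MTRNR2L12 and MTRNR2L1, and ADAR and HNRNPH1 are the highest for MTRNR2L3.

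The copies were also compared between the related fRIPs. In phospho-CBX3 fRIP 4 of 7 copies, MTRNR2L12, MTRNR2L1, MTRNR2L9 and MTRNR2L2, were higher than in CBX3 fRIP, by 2.52 ± 0.42, 2.32 ± 0.28, 1.23 ± 0.31 and 1.06 ± 0.27, where none of the 13 mRNAs was called and 2.73% of all tested genes differed in either direction. Without phospho-CBX3 replicate 1 the differences of MTRNR2L9 (0.58) and MTRNR2L2 (0.83) were not called, and that of MTRNR2L2 was not called without phospho-CBX3 replicate 2 (0.93) or CBX3 replicate 3 (0.95) either. MTRNR2L12 had 6.22, 3.49 and 3.63 FPKM in the CBX3 libraries, below all 3 phospho-CBX3 libraries. In RBBP5 fRIP 6 of 7 copies were higher than in WDR5 fRIP, by 1.03 (MTRNR2L8) to 3.56 (MTRNR2L12), and MTRNR2L6 was not called (0.33 ± 0.11), where 18.0% of all tested genes differed in either direction. Those of MTRNR2L2 (0.90 to 0.96) and MTRNR2L8 (0.97 to 1.00) were not called without some single libraries, RBBP5 replicate 1 or 2 for MTRNR2L2, and RBBP5 replicate 2 or 3 or WDR5 replicate 2 for MTRNR2L8. Between SUZ12 and EZH2 fRIP none of the 7 was called by limma, and none had an unadjusted p under 0.05.

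Nuclear genes for mitochondrial proteins were called against the direction of the mitochondrial mRNAs in some fRIPs, in the same direction in others, and seldom in others still. The lists were the mitochondrial ribosome (77 tested genes), nuclear genes named for the respiratory chain and ATP synthase (94), and the machinery that transcribes, processes and stabilises mitochondrial RNA (29). The second list was made by symbol, so that beside subunits it holds assembly factors such as NDUFAF1, antisense RNAs, a pseudogene and readthrough genes, and some symbols stand for more than 1 gene. In PABP fRIP, 61 of the 77 ribosome genes and 67 of the 94 respiratory chain genes were enriched (11.1% of all tested genes were), with median changes of 1.34 and 1.75, where the mitochondrial mRNAs had a median of -1.48. In HNRNPH1 fRIP, 38 of the 77 and 57 of the 94 were depleted (7.9% of all tested genes were) and 2 and 6 enriched, where the mitochondrial mRNAs had a median of 1.08. In ADAR fRIP, 28 and 39 were depleted (4.31% of all) and 1 and 9 enriched. In DNMT1 fRIP, 30 of the 94 respiratory chain genes were enriched and 0 depleted, and of the 77 ribosome genes 7 were enriched and 2 depleted (9.56% of all tested genes were enriched), where all 13 mitochondrial mRNAs were depleted. In the same direction as the mRNAs, 69 of the 94 respiratory chain genes were depleted in HUR fRIP, 57 in SUZ12, 48 in LSD1, 46 in EZH2, 42 in CBX3, 38 in IMP1 and 33 in phospho-CBX3 fRIP, where 2.91% to 10.5% of all tested genes were and 12 or 13 of the 13 mRNAs were depleted. All 13 mRNAs were also depleted in CBP, CHD1, CHD4, CHD7, NUP98, PCAF, PHF8 and WDR5 fRIP. There 0 to 3 of the 94 were depleted and 0 to 7 enriched, beside 0.896% to 9.79% and 0.263% to 9.08% of all tested genes. In HDAC1 fRIP, where no mitochondrial mRNA was called, 59 of the 94 and 35 of the 77 were depleted (5.35% of all tested genes were). Over all pairs of a gene and a fRIP, 6.65% were enriched and 24.7% depleted in the respiratory chain list, 4.76% and 14.0% in the ribosome list, and 4.60% and 5.17% in the RNA machinery list, against 6.9% and 5.52% of all genes. In HNRNPH1 fRIP 13 of the 29 RNA machinery genes were depleted and 2 enriched (7.9% and 24.5% of all tested genes were). SLIRP, which binds mitochondrial mRNAs with LRPPRC, was enriched in PABP fRIP (2.13 ± 0.38) and depleted in 12 fRIPs, and LRPPRC itself was depleted in HNRNPH1 fRIP (-1.15 ± 0.14).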

How the data were processed

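RNA of 70 fRIP and 9 input libraries of K562 cells was analysed. The submitters' processing notes name CASAVA 1.4, TopHat, Cuffnorm, Cuffdiff and the hg19 genome. The deposited values are FPKM per gene, which the authors estimated with Cuffdiff after alignment with TopHat, per the study's methods. The treatment of reads with several alignments is not given in the sources used here. Besides FPKM, the deposited comparisons hold the authors' fold changes, test statistics and p-values, which were not used. Their pooled FPKM of input were used once, to find the input set nearest to each fRIP. The number of per-sample columns left unused was 0.

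Members and lists were chosen with earlier results of these data known. Genes that reached 1 FPKM in 2 or more libraries were kept, and log2(FPKM + 1) was fitted over all 79 libraries together with limma 3.58.1 (R 4.3.3, mean-variance trend), with a mean for each fRIP and for the 9 inputs. The thresholds of a call are given with the first result. Ratios of genes were compared by exact permutation in Python 3.11.15. The fit was tested on simulated data. The named members were all mRNAs and MTRNR2L copies, the tRNAs highest in input and those with the most calls, and, in full, the fRIPs with the 3 highest and the 3 lowest medians over the mRNAs.

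Depth came from the FPKM steps of low genes. With it, 95.7% to 99.4% of low values in a library were whole numbers of fragments within 0.15. Fragment numbers for short genes cover counting error only, and PCR copies cannot be told apart in them. Coordinates are those of hg19, from the deposited loci or a GENCODE annotation lifted to that build, and sequences were read from the hg19 genome. Runs of 31 bases were looked up on both strands, and alignments to MT-RNR2 used mafft 7.526.

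Replicate numbers did not pair the libraries over the whole series. The mean correlation of the deviations of libraries with the same number as an input library was 0.064 in input set 1, 0.326 in set 2 and 0.0372 in set 3, so fits had no replicate block, and fits with one were alternatives. In set 2, 4 of 5 proteins had all pairs over 0.1, and a block in that set alone was added after this was seen. That block also moves the baseline, as it sets the fRIPs nearest to input2 against input2 and all others against input1 and input3. The second STAG2 library is numbered differently in the labels and in the table, and was used as a library of its group without a number. The other alternatives were the pseudocount, the filter, 2 scalings, each input set alone, the nearest set, separate fits, and leaving out libraries.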

Additional observations from a re-analysis of the deposited data

How the results depend on the processing

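No change of a member took the opposite sign of a call under any alternative run, over the pairs of a member and a fRIP that each could test (840, and fewer with the stricter filter below). Depletion of mitochondrial mRNAs (234 pairs) ranged from 229 to 236 as libraries were left out and from 221 to 238 otherwise. Enrichment of mitochondrial mRNAs (25 pairs) ranged from 21 to 27 as libraries were left out and was 14 with median centring. Among all genes, the share of calls that were enriched was 55.6%, against 51.7% with median centring and 44.5% with upper quartile scaling.

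Enriched tRNA pairs (5) numbered 1 with a pseudocount of 0.1, 3 with a stricter filter (1 FPKM in at least as many libraries as not), 2 with either scaling, 1 against input1, input2 or the nearest set, 8 against input3, 16 with separate fits, and 2 to 6 as libraries were left out. Depleted tRNA pairs (102) numbered 31 against input3, 61 against the nearest set and 70 to 115 as libraries were left out. Enriched MTRNR2L pairs (24) numbered 44 with a pseudocount of 0.1, 6 with that filter, which tests fewer genes, and 21 to 25 as libraries were left out. Depleted MTRNR2L pairs (5) numbered 26 and 12 with pseudocounts of 0.1 and 0.5, 8 with upper quartile scaling, 3, 11 and 2 against input1, input2 and input3, and 3 to 8 as libraries were left out (3 without input2 replicate 1 or 2, 8 without input3 replicate 3). The causes were not tested.

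For both ratios 0 fRIPs were called in either direction against a single input set or the nearest one, since 3 libraries against 3 can give no p below 0.1. As libraries were left out, the ratio of MT-CO3 to MT-ND5 was higher in 0 to 1 of 23 fRIPs and lower in 14 to 18 (PABP was not tested), and that of MT-ND6 to MT-ND5 higher in 0 to 6 and lower in 0 to 7. With a fRIP replicate left out, 2 libraries against 9 can give no p below 0.0182 by exact permutation, so these counts turn on how many fRIPs reach that floor.

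With the replicate block, 25 mRNA pairs were enriched and 231 depleted, 6 tRNA pairs enriched and 105 depleted, and 24 MTRNR2L pairs enriched and 5 depleted. The ratio of MT-CO3 to MT-ND5 was then higher in 1 and lower in 16 of 23 fRIPs, and that of MT-ND6 to MT-ND5 higher in 5 and lower in 6. With the block in input set 2 only, where numbers paired the libraries of most proteins, chosen after the data were seen, 26 mRNA pairs were enriched and 228 depleted, 6 tRNA pairs enriched and 90 depleted, and 23 MTRNR2L pairs enriched and 5 depleted. This block also changes the inputs, to input2 for the fRIPs of that set and to input1 and input3 for all others. Calls lost under it cannot be read as an effect of pairing. Among the fRIPs of that set, the calls of MTRNR2L12 (0.89) and MTRNR2L1 (0.79) in CHD1, MTRNR2L9 (0.87) in RBBP5, and MT-TM and MT-TL2 in WDR5 fRIP were lost under this block, and elsewhere those of MTRNR2L12 in CHD7 (-0.67) and DNMT1 (-0.72), MT-ATP8 in CTCF (-0.87), MT-ND2 in IMP1 (-0.98), and MT-CO1, MT-ND1, MT-ND3 and MT-ATP8 in STAG2 fRIP (-0.96 to -0.88). Calls of the mitochondrial rRNAs, and ratios with them, were not run. Some values of the MTRNR2L copies rest on few fragments, with 7 to 14 of MTRNR2L12 in ADAR libraries and 0 to 2 in HNRNPH1 libraries.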

Other observations

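The genes outside the members whose pattern over the 24 fRIPs was most like the mean of the mitochondrial mRNAs were all annotated as pseudogenes. They were RP5-857K21.11 (chr1:569756-570302, Pearson correlation 0.961), MTND4P12 (chr5:134262350-134263726, 0.957), MTND6P4 (0.905), RP5-857K21.7 (0.890) and hsa-mir-6723 (0.889), given as a description over 24 fRIP means. RP5-857K21.11 had a median of 97.4 FPKM in input and 358 FPKM in ADAR fRIP, and MTND4P12 had 6.78 and 67.7 FPKM. Several of them lie in the stretch of chromosome 1 that shares the most runs of 31 bases with the mitochondrial chromosome, and the part of shared sequence in these values was not tested.

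The gene most like MTRNR2L12 outside the members, with chromosome Y left out, was CTD-2328D6.1 (chrX:108297361-108297792, correlation 0.789), a pseudogene. Its median was 29.8 FPKM in input, 62.6 FPKM in ADAR fRIP and 4086 FPKM in STAG2 fRIP.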
